A study of Homo sapiens with 4 samples.

Results

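Alpha-arrestins and the glucose-sensing factors around them form a set of 8 genes: the alpha-arrestins ARRDC1, ARRDC2, ARRDC3, ARRDC4 and TXNIP, and the transcription factors MLX, MLXIP (MondoA) and MLXIPL (ChREBP). The genes were found by symbol, and all 8 were present among the 60658 Ensembl identifiers of each library. The set was chosen by a measured value, the steep rise of ARRDC4 in LIM1215, so the LIM1215 values of ARRDC4 and its relatives are a description and not a test. Both cell lines, HT29 and LIM1215, were established from human colorectal cancers. In each line, 1 library came from cells given a negative control small interfering RNA (siRNA) and 1 from cells given an siRNA against TMEM161A, a gene for a transmembrane protein whose part in colorectal cancer was the question of the study. An siRNA is a short RNA duplex that directs the degradation of a matching mRNA. The 4 groups of line and siRNA therefore held 1 library each, without replicates, so the spread between cultures is unknown. The labels of both knockdown libraries name a single siRNA, called si2. Time after transfection and the glucose content of the medium are not given in the sources used here.

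Alpha-arrestins are membrane adaptors with an arrestin fold. Most carry PY motifs that recruit NEDD4-type ubiquitin ligases to receptors and transporters, which are then ubiquitinated and internalised. TXNIP also binds thioredoxin and lowers glucose uptake by promoting the internalisation of glucose transporters. MondoA and ChREBP respond to phosphorylated glucose, pair with MLX, and bind carbohydrate response elements, and TXNIP and ARRDC4 are their best known shared targets.

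The promoters of the genes that moved are shown first, because TXNIP and ARRDC4 share a regulator and ARRDC3 is not known as its target. All 8 genes had a promoter in the RefSeq table (GRCh38.p14), and the start used was in each case that of the GENCODE canonical transcript. Shown are the 250 bases before the start, 5′ to 3′ on the strand of the gene. They are chr1:145996580-145996829 (minus strand) for TXNIP, chr15:97960453-97960702 (plus strand) for ARRDC4 and chr5:91383318-91383567 (minus strand) for ARRDC3. Capitals mark matches to 4 patterns searched on both strands: the E-box CACGTG, a pair of E-box-like hexamers (CACGNG or CNCGTG) with 5 bases between them, the CCAAT box and the FOXO motif GTAAACA.
TXNIP: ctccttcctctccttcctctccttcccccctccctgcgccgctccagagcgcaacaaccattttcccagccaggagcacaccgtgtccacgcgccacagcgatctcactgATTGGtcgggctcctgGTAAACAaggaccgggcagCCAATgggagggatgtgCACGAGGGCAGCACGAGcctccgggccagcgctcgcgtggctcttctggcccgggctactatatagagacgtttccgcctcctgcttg
ARRDC4: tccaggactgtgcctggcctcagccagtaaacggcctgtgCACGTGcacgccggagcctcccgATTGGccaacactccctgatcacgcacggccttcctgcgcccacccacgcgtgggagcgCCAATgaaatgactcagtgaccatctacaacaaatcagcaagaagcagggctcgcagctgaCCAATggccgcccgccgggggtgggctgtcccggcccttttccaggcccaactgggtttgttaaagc
ARRDC3: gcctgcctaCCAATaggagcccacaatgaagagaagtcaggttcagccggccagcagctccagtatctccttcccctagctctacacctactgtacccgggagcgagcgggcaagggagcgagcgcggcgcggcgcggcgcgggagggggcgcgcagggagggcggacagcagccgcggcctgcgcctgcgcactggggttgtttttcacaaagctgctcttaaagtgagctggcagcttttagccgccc
Positions below give the first base of a match relative to the start, where -1 is the base just before it. TXNIP held a spaced pair of hexamers, the layout of a carbohydrate response element, at -88. It was 1 of 23 among 35116 promoters, or 0.0655%, with such a pair in this window. ARRDC4 held no spaced pair of these letters but held an E-box at -210, as did 6.34% of promoters. TXNIP also held CCAAT boxes at -140 and -105 and a FOXO motif at -124, and ARRDC4 held CCAAT boxes at -187, -128 and -67. In all, 32% of promoters held a CCAAT box and 2.98% a FOXO motif. ARRDC3 held a CCAAT box at -241 and none of the other patterns. Among the factors themselves, MLX held an E-box at -50, and MLXIP held one at -373, outside the 250-base window but within 1000 bases, where 16.4% of promoters held one. MLXIPL matched none of the patterns within 250 bases. These matches are letters in a window; binding was not measured.

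Levels are FPKM, fragments scaled by gene length and by the fragments of the whole library. From the depth estimated for each library, 1 FPKM equalled 18.1 to 21.54 fragments per kilobase. TMEM161A fell to 10.9% of its control FPKM in HT29 and to 19.4% in LIM1215, which accords with the labels. The labelled colon origin was checked with 10 markers of colon epithelium. In LIM1215 all 10 were above 1 FPKM in both libraries, with summed FPKM of 7605 in the control and 9399 in the knockdown. In HT29, 5 of 10 were under 1 FPKM in each library, with summed FPKM of 2428 and 2690. CDX1, an intestinal transcription factor, and CEACAM5, a surface glycoprotein, had 0 FPKM in each HT29 library. VIL1 (villin of the brush border) had 0.0397 and 0 FPKM in control and knockdown, KRT20 (an intestinal keratin) 0.306 and 0.815, and LGALS4 (a gut galectin) 0.607 and 0.417. The other 5 markers were at 1 FPKM or more in each HT29 library, among them KRT8 with 1467 and 1624 and KRT18 with 736 and 861. HT29 is known to express villin and CEACAM5, so the values of these 2 genes go against the HT29 label of both libraries. The identity of the line was not checked in another way, and every HT29 value below, TXNIP included, rests on that label. Of 8 markers of leukocytes, fibroblasts and endothelium, 6 were under 1 FPKM in every library, PTPRC and CD3E were listed at 0 in all 4, and the summed FPKM ranged from 24.0 to 81.2. The remaining 2 were CD68, a macrophage marker also found in lysosomes of other cells, and COL1A1, a fibroblast collagen. CD68 had 6.22 and 9.82 FPKM in HT29 and 58.1 and 72.2 in LIM1215. COL1A1 had 4.83 and 8.56 in LIM1215, and its highest value was 17.6 in the HT29 control.

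ARRDC4, an alpha-arrestin induced by glucose, rose in LIM1215. Its FPKM was 0.412 in control and 0.682 in knockdown HT29 cells, and 0.826 in control and 6.96 in knockdown LIM1215 cells. The LIM1215 knockdown library stood alone above 1 FPKM, and the other 3 lay between 0.412 and 0.826. The ratio of knockdown to control was 8.43 in LIM1215, with a 95% counting interval of 6.38 to 11.2. In HT29 it was 1.65, with an interval of 1.06 to 2.61. These exact Clopper-Pearson intervals rest on about 33.8 and 56.7 ARRDC4 fragments in HT29 and 57.7 and 544 in LIM1215, and cover counting error alone. On the scale used for all genes, the log2 ratio of FPKM + 1, ARRDC4 had 0.25 in HT29 and 2.12 in LIM1215, and the latter was the highest of 12295 protein-coding genes with a mean FPKM of at least 1. The pseudocount of 1 understates changes of genes this low, and the rank depends on it: a pseudocount of 5 gave ARRDC4 a log2 ratio of 1.04, the 20th highest and below the 1.55 of TXNIP, and 0.1 gave 2.93, the 2nd highest. ARRDC4 passed that filter, with a mean of 2.22, through the LIM1215 knockdown library alone, since its mean over the other 3 was 0.64. The gene (ENSG00000140450) lies at chr15:97960703-97973833 on the plus strand and overlaps no other annotated gene.

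TXNIP, which binds thioredoxin and curbs glucose uptake, rose beside ARRDC4 in LIM1215 and was not seen in HT29. It was listed at 0 FPKM in both HT29 libraries, at 17.0 in the LIM1215 control and at 59.4 in the LIM1215 knockdown. The 2 lines did not overlap, and within LIM1215 the knockdown library was the higher. The ratio in LIM1215 was 3.5 (95% counting interval 3.24 to 3.78, from an estimated 830 and 3253 fragments), and the log2 ratio was 1.75, the 9th highest among protein-coding genes (18th with a pseudocount of 0.1 and 4th with 5). A single TXNIP fragment would have given 0.0174 FPKM in the HT29 control and 0.0172 in the HT29 knockdown, so no fragment was assigned to it in HT29. TXNIP was not alone in this: 54 of the 8011 coding genes at 10 FPKM or more in the LIM1215 control were at 0 in both HT29 libraries. The reverse held for 2 of 7694. None of 8 housekeeping genes was at 0 in any library. TXNIP (ENSG00000265972) lies at chr1:145992435-145996579 on the minus strand and overlaps no other annotated gene.

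Although both rose, ARRDC4 and TXNIP differed in level. Per length, TXNIP stood at 20.5 times the FPKM of ARRDC4 in the LIM1215 control and at 8.53 times in the knockdown, so ARRDC4 rose by the larger factor from the lower level. The colon markers were also higher in the LIM1215 knockdown library than in its control, all 10 of 10, beside 53.1% of all genes. Their median log2 ratio was 0.33 in LIM1215 and -0.019 in HT29. In each HT29 library 5 of the 10 were under 1 FPKM, which holds their ratios near 0, so the medians are not a like comparison. CD68 and COL1A1 had log2 ratios of 0.31 and 0.71 in LIM1215. The part of either marker list in the rises of TXNIP and ARRDC4 was not tested. In bulk RNA, more cells expressing a gene and more RNA per cell cannot be told apart.

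ARRDC3, an alpha-arrestin that promotes the degradation of adrenergic receptors and integrin beta-4 and is known as a brake on breast cancer invasion, was higher in both knockdown libraries. HT29 cells had 31.0 FPKM with the control siRNA and 91.3 with si2, and LIM1215 cells had 13.9 with the control siRNA and 26.4 with si2. Here the HT29 knockdown library was highest, and the LIM1215 knockdown stayed below the HT29 control. The HT29 ratio was 2.95 (95% counting interval 2.82 to 3.08), and the LIM1215 ratio was 1.89 (1.76 to 2.04). The log2 ratios were 1.53 in HT29, the 10th highest of the protein-coding genes (47th with a pseudocount of 0.1), and 0.87 in LIM1215, the 147th highest. Only the HT29 value was past 2-fold. The gene (ENSG00000113369) lies at chr5:91368631-91383317 on the minus strand. An antisense RNA, ARRDC3-AS1, overlaps it and was low, with 0.356 to 1.38 FPKM.

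Neither ARRDC1 nor ARRDC2 passed 2-fold in either line. ARRDC1, which recruits ESCRT proteins to bud vesicles from the plasma membrane, had FPKM of 31.2 and 43.1 in the HT29 control and knockdown, and 54.8 and 66.0 in the LIM1215 control and knockdown. Both LIM1215 libraries lay above both HT29 libraries. The ratio of knockdown to control was 1.38 for HT29 (95% counting interval 1.27 to 1.51), while LIM1215 had 1.2 (1.12 to 1.29). ARRDC2, a less studied alpha-arrestin, had 13.7 and 17.6 in HT29 and 12.1 and 13.4 in LIM1215. Its 4 values spanned the narrowest range of the arrestin-domain genes. The ratio was 1.29 in HT29 (1.16 to 1.42) and 1.11 in LIM1215 (0.982 to 1.25), where the interval includes no difference. ARRDC1 (ENSG00000197070) lies at chr9:137605685-137615360 and ARRDC2 (ENSG00000105643) at chr19:18001132-18014102, both on the plus strand. ARRDC1 is overlapped on the opposite strand by ARRDC1-AS1, with 3.04 to 5.36 FPKM.

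**Figure D1:**
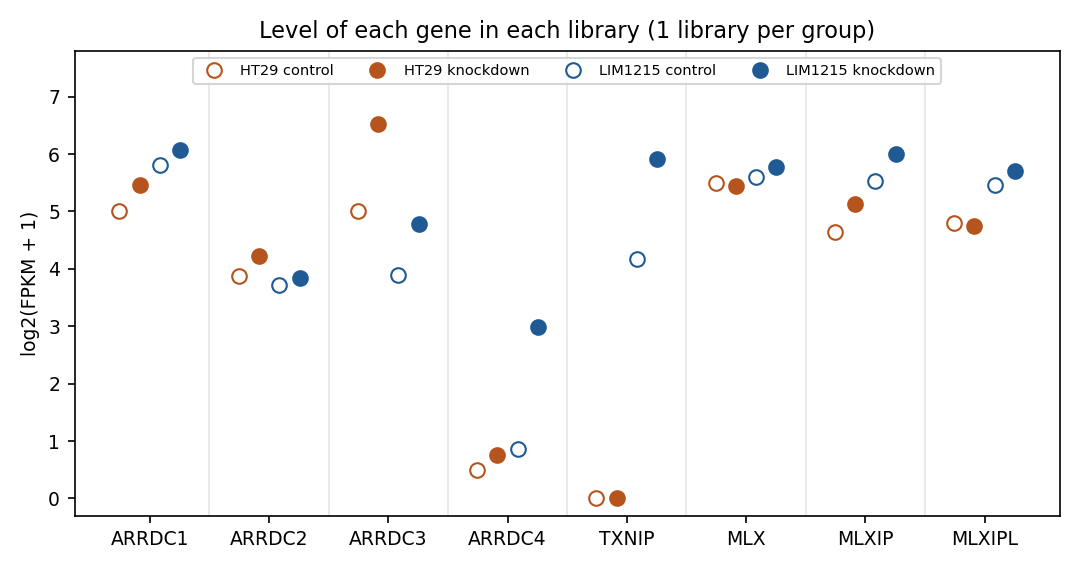
Level of each of the 8 genes in each of the 4 libraries, as log2(FPKM + 1), with open circles for control and filled circles for knockdown; each group is 1 library, so there are no error bars. TXNIP is at 0 in both HT29 libraries, ARRDC4 is low in every library but the LIM1215 knockdown, and ARRDC3 is highest in the HT29 knockdown.

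None of the transcription factors of the glucose response passed 2-fold in either line. MLXIP encodes MondoA, which shuttles between mitochondria and nucleus and enters the nucleus when phosphorylated glucose builds up. Its level in HT29 was 23.9 FPKM with the control siRNA and 34.0 with si2, and in LIM1215 it was 45.2 and 63.4. The knockdown library was the higher in each line, with ratios of 1.42 for HT29 (95% counting interval 1.37 to 1.48) and of 1.4 for LIM1215 (1.36 to 1.45). With log2 ratios of 0.49 and 0.48, MLXIP was the gene of the set with the most alike values in the 2 lines. MLXIPL encodes ChREBP, the carbohydrate response factor of liver and gut. Its FPKM was 26.8 and 25.8 in HT29, and 43.2 and 51.2 in LIM1215. The ratio was 0.964 in HT29, with a counting interval of 0.901 to 1.03, and 1.19 in LIM1215, with an interval of 1.12 to 1.25. MLX encodes the partner that both need to bind DNA. Its FPKM was 44.2 and 42.3 in HT29, and 47.7 and 53.6 in LIM1215. The ratio was 0.957 in HT29 (0.899 to 1.02) and 1.12 in LIM1215 (1.06 to 1.19). Neither MLX nor MLXIPL differed in HT29 beyond counting error, and in LIM1215 both ratios lay below that of MLXIP.

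MLXIP (ENSG00000175727) lies at chr12:122078756-122147344 on the plus strand, MLXIPL (ENSG00000009950) at chr7:73593194-73624543 on the minus strand and MLX (ENSG00000108788) at chr17:42567072-42573239 on the plus strand. PSMC3IP overlaps MLX on the opposite strand with up to 23.1 FPKM, and whether the counting used strand is not given in the sources used here, so the MLX level is less certain. Within a library, the FPKM of MLXIP relative to MLXIPL was 0.892 in the HT29 control and 1.31 in the HT29 knockdown, and 1.05 and 1.24 in LIM1215. MondoA thus went from the less to the more abundant of the 2 mRNAs in HT29. Relative to MLX, MLXIP stood at 0.54 and 0.802 in HT29 and at 0.946 and 1.18 in LIM1215.

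The counts past 2-fold (a log2 ratio of at least 1 in size) were small. In HT29, 1 of the 8 genes rose past 2-fold (ARRDC3) and none fell, where 3.8% of all 14803 genes with a mean FPKM of at least 1 were past 2-fold in either direction and 1.85% were higher. In LIM1215, 2 of 8 rose (ARRDC4 and TXNIP) and none fell, where 3.46% of all genes were past 2-fold and 1.68% were higher; since that contrast chose the genes, nothing is read from this count. In LIM1215 all 8, ARRDC4 and TXNIP among them, had a log2 ratio above 0, beside 53.1% of all genes. Nothing is read from this count either, for the same reason. In HT29, 5 were above 0, beside 53.9% of all genes, 2 were below and TXNIP was at 0. The median of the 8 was 0.3 in HT29 and 0.37 in LIM1215, beside 0.035 and 0.023 over all genes. The LIM1215 median comes from the contrast that chose the genes, so nothing is read from it.

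**Figure D2:**
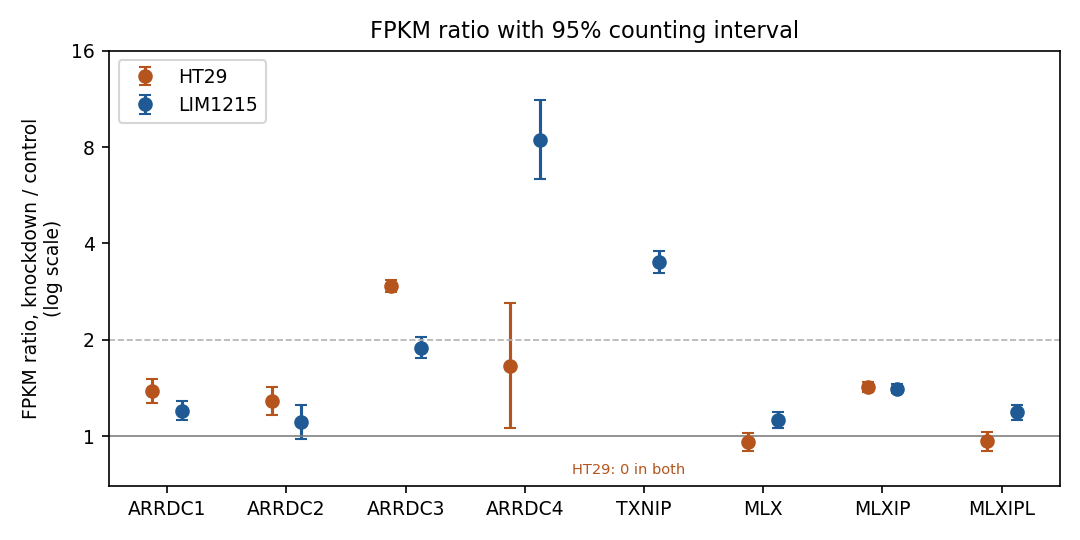
Ratio of FPKM, knockdown to control, on a log axis for each of the 8 genes in HT29 and LIM1215; points are ratios of 1 library to 1 library, bars are 95% counting intervals that cover counting error alone, and the dashed line is at 2-fold. ARRDC3 lies above the line in HT29 (2.95), and ARRDC4 (8.43) and TXNIP (3.5) lie above it in LIM1215; TXNIP has no HT29 ratio because both libraries are at 0.

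**Figure D3:**
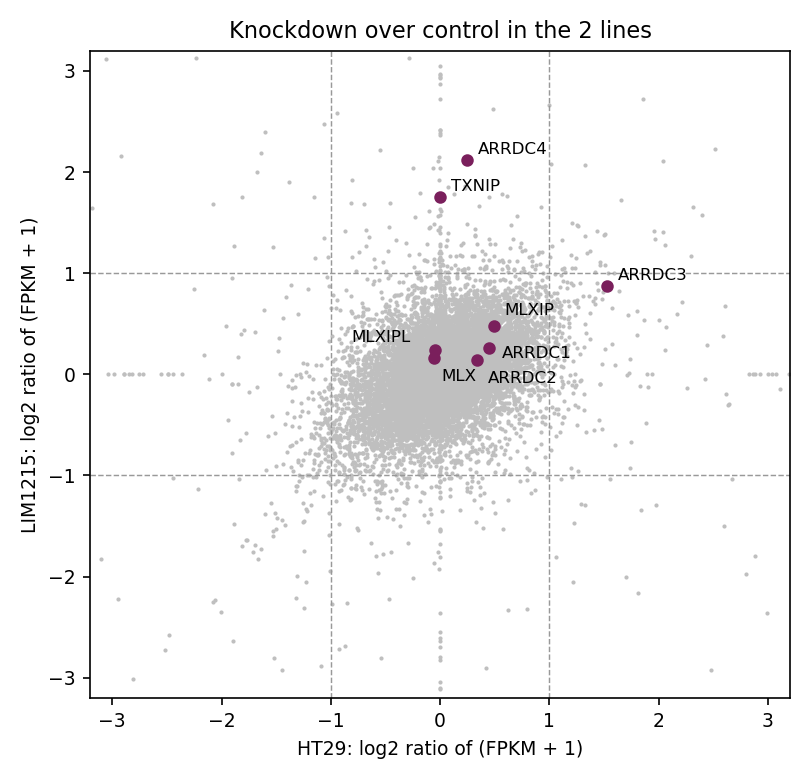
Log2 ratio of knockdown over control in LIM1215 (vertical) against HT29 (horizontal) for the genes with a mean FPKM of at least 1 (grey) and the 8 genes (named); 95 of 14803 genes lie outside the axes, which end at 3.2. ARRDC4 and TXNIP lie high on the vertical axis near 0 on the horizontal, and ARRDC3 lies to the right.

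The lines differed most for ARRDC4 and TXNIP. Subtracting the HT29 from the LIM1215 log2 ratio gave 1.87 for ARRDC4 and 1.75 for TXNIP, but -0.65 for ARRDC3. The other 5 lay between -0.2 (ARRDC2) and 0.29 (MLXIPL). With 1 library per group, no difference between the lines was tested, and for TXNIP the HT29 term sets 0 FPKM against 0 FPKM.

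The order of levels within a library also shifted. In the HT29 control it was MLX, ARRDC1, ARRDC3, MLXIPL, MLXIP, ARRDC2, ARRDC4 and TXNIP, from high to low, and ARRDC1 and ARRDC3 did not differ beyond counting error. In the HT29 knockdown ARRDC3 moved to the top at 91.3, above ARRDC1 and MLX, whose counting intervals overlapped. In the LIM1215 control ARRDC1 led, followed by MLX, MLXIP and MLXIPL, neighbours whose intervals overlapped in turn, and then TXNIP, ARRDC3, ARRDC2 and ARRDC4, of which ARRDC3 and ARRDC2 overlapped. In the LIM1215 knockdown ARRDC1 and MLXIP led with overlapping intervals, and TXNIP had moved to the third place at 59.4. ARRDC4 remained the lowest of the 8 in both LIM1215 libraries, despite its rise. Of the summed FPKM of the 5 arrestin-domain genes, ARRDC3 held 40.6% in the HT29 control and 59.8% in the HT29 knockdown. TXNIP held 17.2% in the LIM1215 control and 34.5% in the knockdown, and ARRDC4 held 0.837% and 4.04%. ARRDC1 held 55.6% and 38.3% of the same sums. The sum itself was 76.3 and 153 FPKM in HT29 and 98.6 and 172 FPKM in LIM1215.

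Between the control libraries, 2 of the 8 genes were past 2-fold, TXNIP higher in LIM1215 and ARRDC3 lower, where 19.4% of all genes were. The LIM1215 control held 0.45 times the ARRDC3 FPKM of the HT29 control (95% counting interval 0.418 to 0.484). The same ratio was 1.89 for MLXIP, 1.76 for ARRDC1, 1.61 for MLXIPL, 2.0 for ARRDC4 (1.29 to 3.16) and 0.883 for ARRDC2. For MLX it was 1.08, and it turned to 0.952 once each library was given the same total, so no direction is given. No ratio is given for TXNIP, which was listed at 0 in HT29.

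None of the 6 named coding genes nearest to each gene that moved was past 2-fold. Among all genes 3.8% were past it in HT29 and 3.46% in LIM1215, so nothing is read from this count. Some of these neighbours were under 1 FPKM in all 4 libraries, and others lay up to 4871492 bases away. For ARRDC4, the 3 nearest named coding genes on each side had log2 ratios from -0.32 to 0.49 in LIM1215 and from -0.15 to 0.75 in HT29. Its nearest neighbour IGF1R, a growth factor receptor gene 674706 bases away, had -0.31 in LIM1215. For TXNIP the range was -0.15 to 0.26 in LIM1215, and POLR3GL, an RNA polymerase subunit gene 13587 bases away, had 0.26. For ARRDC3 the range was -0.25 to 0.62 in HT29.

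**Figure D4:**
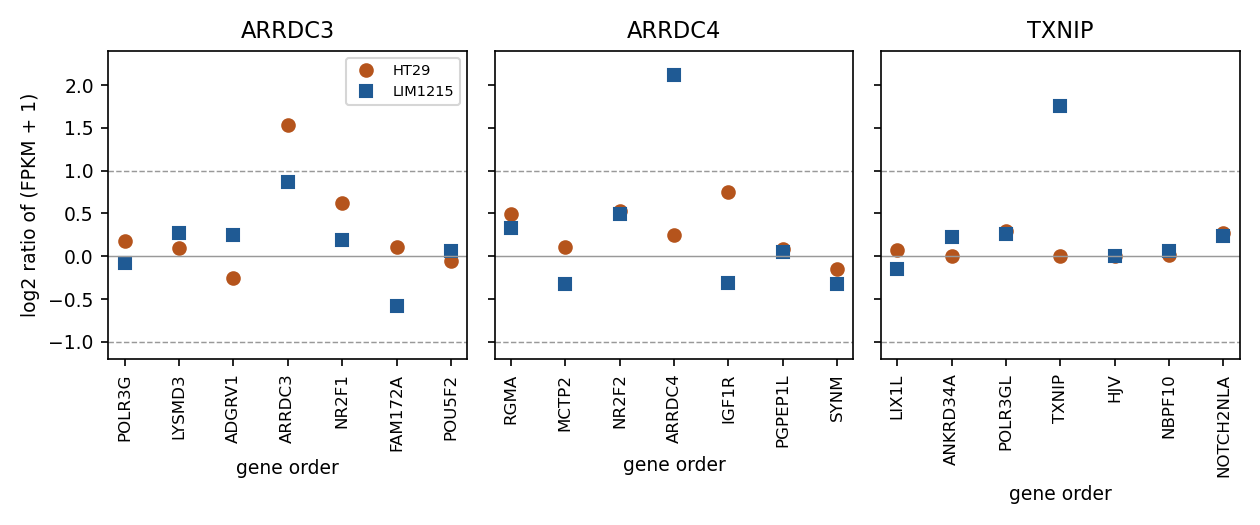
Log2 ratios of knockdown over control for ARRDC3, ARRDC4 and TXNIP and the 3 nearest named coding genes on each side, in gene order. None of the neighbours reaches the 2-fold line in either cell line, whereas ARRDC3 does in HT29 and ARRDC4 and TXNIP do in LIM1215. Few genes do: 3.8% of all genes were past 2-fold in HT29 and 3.46% in LIM1215.

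The other genes of the pathway were described from fixed lists, counting those with a mean FPKM of at least 1. Of 24 other genes listed here as MondoA or ChREBP targets, 21 were counted. In HT29, 1 rose and 1 fell past 2-fold, and in LIM1215 again 1 rose and 1 fell. This limit applies to FPKM + 1, which understates changes of low genes. By FPKM ratio alone, ACACB (2.13) and PNPLA3 (2.04) in LIM1215 and KHK (0.491) in HT29 were also among those past 2-fold. The list medians of the log2 ratio were -0.079 in HT29 and 0.0021 in LIM1215, near those of all genes. KLF11, a zinc finger repressor, rose in both lines: its FPKM was 1.39 and 5.81 in HT29 and 4.59 and 10.8 in LIM1215, or ratios of 4.17 and 2.36 with 95% counting intervals of 3.38 to 5.14 and 2.07 to 2.69. ACACB, an acetyl-CoA carboxylase of mitochondrial membranes, fell in HT29 from 4.61 to 1.11 FPKM, and in LIM1215 had 1.66 in the control and 3.52 in the knockdown, a log2 ratio of 0.77. ELOVL6, a fatty acid elongase, had 51.9 and 49.1 FPKM in HT29 and fell in LIM1215 from 25.2 to 11.1. The list therefore held no common direction in LIM1215, with 11 genes above 0 and 10 below.

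Among 10 genes of the network around MLX and MAX, USF1 and USF2 included, all were counted. MXD4 rose in LIM1215, and none passed 2-fold in HT29. MXD4 encodes a repressor that pairs with MAX or MLX, and its FPKM was 9.49 and 17.5 in HT29 and 13.3 and 27.6 in LIM1215. Its LIM1215 log2 ratio of 1.0 sits on the limit and fell just under it when centred on the median. The list medians were 0.28 in HT29 and 0.087 in LIM1215. Of 5 other arrestins, only the beta-arrestins ARRB1 and ARRB2 were counted, and neither passed 2-fold. ARRB1, a regulator of G protein-coupled receptors, had 13.8 and 22.6 FPKM in HT29 and 34.5 and 39.2 in LIM1215, log2 ratios of 0.67 and 0.18.

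Genes for glucose entry and phosphorylation, the step that feeds MondoA, included 18 counted of 25. SLC5A1, the sodium-coupled glucose transporter, was the one past 2-fold, with 5.74 and 2.14 FPKM in HT29, a ratio of 0.373 (95% counting interval 0.318 to 0.438), and 1.80 and 0.937 in LIM1215. The list medians were -0.012 in HT29 and -0.06 in LIM1215. Of 13 genes of the thioredoxin system and genes linked to it or to TXNIP, 12 were counted and none passed 2-fold. Below 0 were 8 of the 12 in HT29 and 9 in LIM1215, beside 6566 and 6870 of all 14803 genes. The medians were -0.17 and -0.12, beside 0.035 and 0.023 over all genes. TXNRD1, the cytosolic thioredoxin reductase, had 378 and 283 FPKM in HT29 and 207 and 149 in LIM1215, log2 ratios of -0.42 and -0.47. TXNRD1 stands in the target list as well, where it was likewise among the genes below 0.

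None of the 14 counted ubiquitin ligases and ESCRT partners of 15 passed 2-fold, and the medians were 0.03 and 0.1. HECW1, a NEDD4-type ligase, had the largest log2 ratio there, -0.77 in HT29, from 4.07 and 1.98 FPKM. This is an FPKM ratio of 0.486, and with a pseudocount of 0.1 its log2 ratio reached -1.0. In LIM1215 it had 1.08 and 1.65 FPKM. Of 7 genes for proteins that alpha-arrestins are known to carry, 4 were counted. In each line 2 were above 0 and 2 below, with medians of 0.14 in HT29 and 0.12 in LIM1215. ITGB4, the integrin beta-4 gene, was above 0 in both lines, with 71.7 and 131 FPKM in HT29 and 150 and 212 in LIM1215. SLC11A2, an iron transporter, fell in HT29 from 33.0 to 15.0 FPKM, a ratio of 0.454 (95% counting interval 0.424 to 0.485), and had 34.2 and 26.0 in LIM1215. The energy sensor AMPK phosphorylates TXNIP. A list of 8 genes held its subunits and STK11, a kinase gene that is not a subunit. Of these, 7 were counted and none passed 2-fold. In LIM1215, STK11 was the 1 gene above 0, with a log2 ratio of 0.39, and 6 were below. PRKAB2, a regulatory subunit, had 8.03 and 11.1 FPKM in HT29 and 6.16 and 5.90 in LIM1215.

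FOXO factors and the glucocorticoid receptor are other known regulators of this family, and 15 of 16 genes of that list were counted. FOXO1, a transcription factor held back by insulin signalling, rose in HT29 from 1.65 to 4.73 FPKM (ratio 2.86, 95% counting interval 2.43 to 3.38) and had 2.45 and 3.11 in LIM1215. SESN1 and SESN3 encode sestrins, stress-induced proteins that restrain mTORC1. In LIM1215 SESN1 rose from 4.53 to 13.0 FPKM and SESN3 from 0.836 to 3.17. In HT29, SESN1 had 5.57 and 9.42 and SESN3 0.915 and 1.17. The list medians were 0.11 in HT29 and 0.25 in LIM1215. Of the 15, 8 were above 0 and 7 below in HT29, and 10 and 5 in LIM1215. Among all 14803 genes, 6566 were below 0 in HT29 and 6870 in LIM1215. By FPKM ratio alone, FOXO6, a further FOXO factor, also fell past 2-fold in LIM1215. It dropped there from 1.28 to 0.359 FPKM, a ratio of 0.28 (95% counting interval 0.112 to 0.579), with a log2 ratio of -0.75. In HT29, FOXO6 had 3.74 and 2.47 FPKM.

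**Figure D5:**
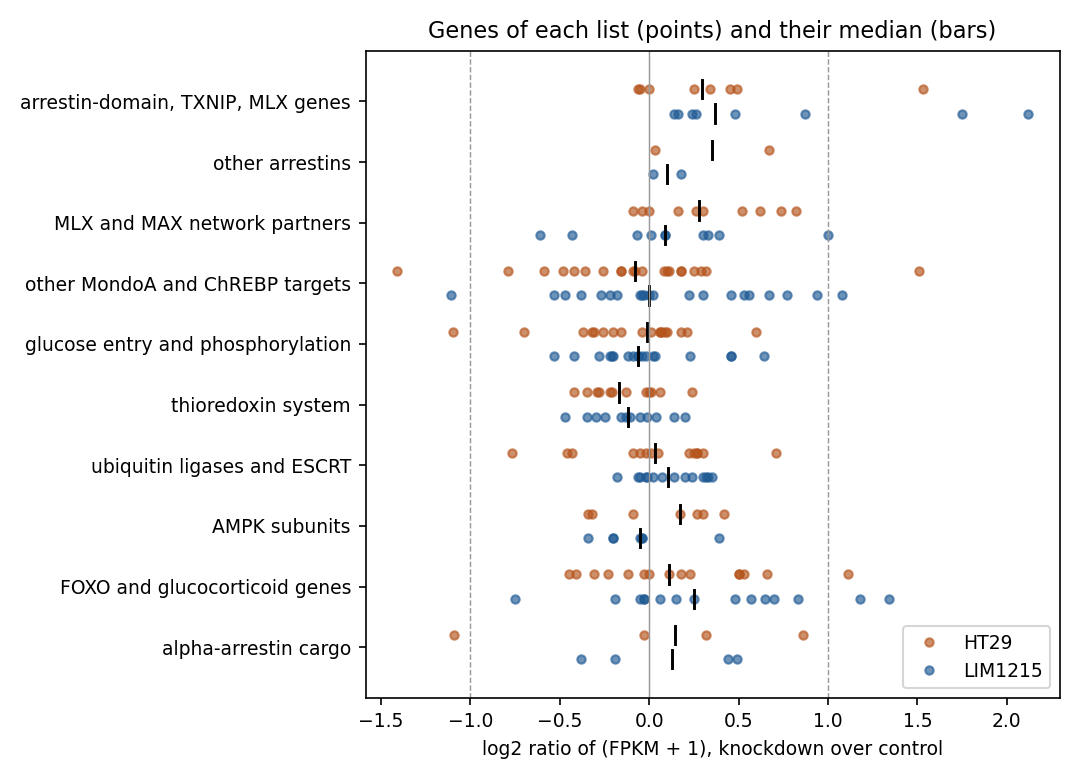
Log2 ratio of knockdown over control of each counted gene (points) and the median (bars) of the 8 genes and of 9 lists of pathway genes, HT29 above LIM1215 in each row, with dashed lines at 2-fold. Most points lie within 2-fold, and the 2 points farthest to the right in LIM1215 are ARRDC4 and TXNIP.

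The genes most like ARRDC4 and TXNIP were those nearest in 3 log2 ratios (knockdown over control in each line, and the LIM1215 over the HT29 control), among 12216 coding genes over these 4 libraries. Nearest to ARRDC4 were UBE3D at a distance of 0.53 log2 units, NEU4 at 0.56, INO80B-WBP1 at 0.69, CDH16 at 0.83 and ZNF774 at 0.93. UBE3D, a ubiquitin ligase gene, had 4.35 and 4.83 FPKM in control and knockdown HT29, then 4.27 and 17.2 in control and knockdown LIM1215. NEU4, a sialidase gene, had 0.0826, 0.272, 0.972 and 6.15 in the same order, and its HT29 values rest on about 2.99 and 9.96 fragments. The like genes were picked by these same ratios. What they share with ARRDC4 or TXNIP, such as a high value in the LIM1215 knockdown, was therefore set by the choice. NEU4 and CDH16, like ARRDC4, were above 1 FPKM in that library alone and passed the filter through it. INO80B-WBP1 is a readthrough of neighbouring genes and its level is uncertain. Nearest to TXNIP were CLDN1 at 0.84, CAPN8 at 0.86, SLC6A20 at 0.89, CHFR at 0.93 and LY6G6D at 1.18. CLDN1, a tight junction gene, had 0.0143, 0.202, 9.78 and 29.2 FPKM in that order. CHFR, a mitotic checkpoint ubiquitin ligase gene, and LY6G6D were listed at 0 in both HT29 libraries, like TXNIP, and had 12.1 and 24.1, and 35.6 and 81.0, in the LIM1215 control and knockdown.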

How the data were processed

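Poly(A) RNA of 4 libraries was sequenced after a stranded mRNA preparation, per the labels' protocols. The values are FPKM as deposited by the authors, 1 table of 60658 Ensembl identifiers per library. The submitters' processing notes name HISAT2 2.1.0, SAMtools 1.20, Cufflinks 2.2.1, Cuffdiff and GRCh38, with no role or order. The annotation release, strand setting and treatment of fragments that match several genes are not given in the sources used here. Since FPKM divides by a library's total, a change in abundant genes shifts the rest. Symbols and positions came from GENCODE release 44 on GRCh38 (56550 identifiers matched), and promoters from RefSeq.

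From these values the log2 ratio of FPKM + 1 was computed for the 14803 genes with a mean FPKM of at least 1 over the 4 libraries. A ratio of at least 1 in size was counted as past 2-fold, with no p-value, since no group had a replicate. Depth was estimated from the steps of low FPKM values: of genes with 1 transcript of at least 500 bases, 75.8% to 77.0% of values lay within 0.03 of a whole fragment, against 6.0% without steps. Estimated fragments, from the canonical transcript length, gave the counting intervals. The depth fit was tested on simulated data. Python 3.11.15, numpy 2.4.6, pandas 2.3.3, scipy 1.17.1 and matplotlib 3.10.9 were used.

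Genes named are the targeted gene, the 8 genes, the genes of each list past 2-fold in a line (or, where a list has none, its largest among those with a mean FPKM of at least 1), markers, neighbours, and the 5 coding genes (canonical transcript of at least 500 bases) nearest to ARRDC4 and to TXNIP. ARRB2, IGF1R, POLR3GL, PSMC3IP, ITGB4, PNPLA3, KHK, STK11, FOXO6, USF1, USF2 and the markers named were picked after their values were seen. The genes and lists were chosen with earlier results of these data known. Other pseudocounts, scalings, filters and thresholds were tried.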

Additional observations from a re-analysis of the deposited data

Results flagged for a closer look

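Among the genes named in the text and the medians of its lists, 15 had a knockdown library above its control in one line and below it in the other. Opposite signs were common: 5000 of all 14803 genes (33.8%) had them, and 40 of the 119 counted genes of all lists. With 1 library per group, none of these differences was tested. The values are the LIM1215 minus the HT29 log2 ratio. Of the 8 genes, MLX differed by 0.23 (-0.061 in HT29 and 0.16 in LIM1215) and MLXIPL by 0.29 (-0.051 and 0.24). ACACB differed by 2.18, with -1.41 in HT29 and 0.77 in LIM1215. HECW1 differed by 1.11 and PRKAB2 by -0.48. Of the genes most like ARRDC4 or TXNIP, CDH16 differed by 1.55, ZNF774 by 1.29 and CAPN8 by 1.38. The HT29 ratio of ZNF774 was -0.0013, and that of CDH16 rested on fewer than 3 fragments. IGF1R differed by -1.06, and the markers VIL1 by 0.5, LGALS4 by 0.51 and COL1A1 by 0.84. VIL1 and LGALS4 were under 1 FPKM in both HT29 libraries, so their HT29 signs are uncertain. The list medians differed by 0.081 for the other MondoA and ChREBP targets and by -0.22 for the AMPK subunits with STK11. They differed by 0.35 for the colon epithelium markers, of which 5 of 10 were under 1 FPKM in each HT29 library.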

How the results depend on the processing

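Over 6 other pseudocounts and scalings, none of the 16 log2 ratios of the 8 genes changed sign or side of 2-fold (96 values); the HT29 ratio of TXNIP, 0 as reported, became -0.035 when centred on the median. ARRDC4 had 0.61 in HT29 and 2.93 in LIM1215 with a pseudocount of 0.1, and 1.04 in LIM1215 with a pseudocount of 5, where TXNIP had 1.55. With a mean FPKM of at least 5, ARRDC4 dropped out and 1 gene of the set stayed past 2-fold in LIM1215. All genes past 2-fold, 562 in HT29 and 512 in LIM1215, became 1128 and 984 with a pseudocount of 0.1, 181 and 156 with 5, 272 and 202 with a mean FPKM of at least 5, 2188 and 1897 at 1.5-fold, 273 and 202 for coding genes, and 321 and 275 for transcripts of at least 500 bases. Without a filter LIM1215 had 770. Between the controls, 2872 became 1300 with a pseudocount of 5, 1670 with a mean FPKM of at least 5 and 5629 at 1.5-fold. In HT29, 274 genes were higher and 288 lower, but 232 and 387 with a common sum without mitochondrial genes, and 264 and 389 as TPM. Rescaling to TPM moved the median between the controls from 0.052 to -0.11. With a pseudocount of 5, KLF11 (0.76 and 0.72), FOXO1 (0.55), SESN1 (0.92), SESN3 (0.48), ACACB (-0.65), ELOVL6 (-0.91), SLC5A1 (-0.59) and SLC11A2 (-0.93) were within 2-fold. With a pseudocount of 0.1, HECW1 (-1.0), NEU4 (1.03) and CLDN1 (1.4) in HT29 and ACACB (1.05) in LIM1215 were past it. No replicate numbers pair libraries; a fit with the line as a block would leave 1 residual degree of freedom and was not run. Counting intervals and depth cover counting error only; the variation between cultures was not measured.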
